A study of Homo sapiens and Mus musculus with 12 samples.

Results

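This account covers the peaks of 2 transcription factors, SPDEF and GATA6, on human chromosome 20 in a pancreatic ductal adenocarcinoma (PDA) cell line. The members are 166 SPDEF peaks and 364 GATA6 peaks, 530 of the 13445 peaks in the human lists. They are all peaks placed on chromosome 20 of the hg19 build, apart from 35 of the chromosome's 565 that lay within 1 Mb of the centromere band. The chromosome was chosen by its measured peak counts, which exceed what its length gives, so those counts are reported as a description and carry no test. The nearest peaks on each side of the 1 Mb limit were far from it on the p arm, where the outermost peak left out lay 562 kb from the band and the nearest kept peak 2257 kb. On the q arm the outermost peak left out lay 927 kb from the band and the nearest kept peak 1444 kb.

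The study made 12 CUT&RUN libraries, in which an antibody-directed nuclease releases the chromatin fragments that are then sequenced. The lists used here come from HPAF-II, an established human PDA line that carries SPDEF with an HA tag, grown in RPMI with fetal bovine serum, and the other libraries are an IgG control and H3K4me3 in these cells and a mouse PDA line, not used here. SPDEF was mapped through the tag in 3 libraries and GATA6 with its own antibody in 3 libraries of the same tagged cells. The tagged factor is thus present behind both lists, and the labels say neither how it was introduced nor at what level. Each target has 1 deposited list without heights, scores or replicate values, so no value below has a replicate error and no test was run. Intervals are 95% intervals for counting error only, and since peaks lie in groups they are too narrow for the spread between cultures. Depth is unknown.

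SPDEF is an ETS-family factor that drives secretory programmes in mucus-producing epithelia, and GATA6 is a zinc-finger factor of endoderm development that marks the classical subtype of PDA. ETS factors read a GGAA or GGAT core in DNA, and GATA factors read the letters GATA. Chromosome 20 carries FOXA2, a pioneer factor of gut endoderm, and HNF4A, a nuclear receptor of gut and liver. It also carries the protease inhibitors of the WFDC family, which epithelia secrete.

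Gene positions in hg19 were at hand for 8 genes of the chromosome, from 2 sample tables shipped with software and unrelated to these data. They are SIRPB2, SEC23B, NCOA5, STAU1, BCAS1, FAM209A, APCDD1L and NTSR1. They are too few to describe how peaks lie relative to genes, but each is a place where a peak can be tied to a gene. SEC23B, NTSR1 and SIRPB2 had a peak within the gene, and the other 5 had none.

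SEC23B encodes an inner coat protein of the COPII vesicles that carry secretory cargo out of the endoplasmic reticulum. The gene runs from 18488126 to 18542059 on the plus strand in 20p11.23. An SPDEF peak of 267 bp (18488194 to 18488460) and a GATA6 peak of 251 bp (18488194 to 18488444) began at the same base, 68 bp after the gene start, and reached 335 and 319 bp after it. They overlapped an exon of the table's transcript, the first, and ran into its first intron. No other peak of either list lay within 100 kb of the gene. Both peaks are thus at the start of the gene, with none near. The sequence before the start is shown because it is the only gene start here that lies within 1 kb of a peak of both lists. It is RefSeq's, in GRCh38.p14 (chr20:18507298-18507547, plus strand), 250 bases up to the outermost RefSeq start. How this start relates to the peaks in hg19 was not determined, since the builds differ. Capitals mark the letters CCGGAA, here on the minus strand and so read as TTCCGG.

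SEC23B, 250 bases before the start: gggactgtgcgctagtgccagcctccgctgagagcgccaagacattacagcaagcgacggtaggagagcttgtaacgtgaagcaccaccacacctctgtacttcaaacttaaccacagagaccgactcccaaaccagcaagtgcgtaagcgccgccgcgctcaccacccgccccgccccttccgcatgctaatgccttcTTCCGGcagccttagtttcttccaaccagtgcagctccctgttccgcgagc

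This stretch is 59.6% G and C, and it was searched on both strands for GATA-type and ETS-type letters. CCGGAA, which holds the ETS core GGAA, matched 1 time, at 51 to 46 bases before the start. The bare core GGAA, read as TTCC on the other strand, occurs at further places in this stretch. It was not searched for and is not marked. The marked string CCGGAA was added to the search after the sequence had been read, as was CCGGAT, which did not match. The GATA-type AGATAA did not match, nor did CAGGAT or the related CAGGAA. Of 35116 RefSeq promoter windows of the same length, 14.5% hold CCGGAA on either strand, 24.1% hold CAGGAA, 11.7% hold CAGGAT, 9.17% hold AGATAA and 5.85% hold CCGGAT. None of these contains another. RefSeq lists a second window for the gene, in which there were 0 matches to these longer strings, though the bare core GGAA occurs there too. A match describes the letters and is not a site of either factor.

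Chromosome 20 held 2.90 SPDEF peaks per Mb outside the centromere zone, against 0.862 over the other chromosomes, a ratio of 3.36 (95% exact interval 2.86 to 3.94). For GATA6 it held 6.36 peaks per Mb against 3.56, a ratio of 1.79 (1.60 to 1.98). By length it ranked 1 of 23 chromosomes for SPDEF, ahead of chromosome 12 at 2.61 per Mb. For GATA6 it ranked 2, behind chromosome 12 at 7.33 per Mb. The chromosome is gene-rich, and per protein-coding gene the ratios were lower, 2.46 (2.09 to 2.88) for SPDEF and 1.31 (1.17 to 1.45) for GATA6. It then ranked 3 for SPDEF and 7 for GATA6, with chromosome 14 first in both lists. The lists stood closer in size here than elsewhere, with 2.19 GATA6 peaks for each SPDEF peak, against 2.81 on chromosome 12 and 2.58 on chromosome 14. Over all chromosomes except 20 the value was 4.13, and with 12 and 14 also left out it was 4.56.

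The arms differed in their balance of the factors. The q arm had 3.37 SPDEF peaks per Mb and the p arm 2.28, a ratio of 1.48 (1.06 to 2.08). For GATA6 the order was turned round, with 5.88 peaks per Mb on the q arm and 6.99 on the p arm, a ratio of 0.842 (0.682 to 1.04) whose interval includes 1. There were 1.75 GATA6 peaks for each SPDEF peak on the q arm and 3.07 on the p arm. The q arm has 357 protein-coding genes and the p arm 180. Counted per gene, SPDEF peaks were as frequent on the q arm as on the p arm (0.308 and 0.311 per gene, ratio 0.990, 0.712 to 1.39), and the GATA6 ratio was 0.563 (0.456 to 0.696).

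Bands showed where each factor was dense. SPDEF peaks were most frequent per Mb in 20q11.22 (14 peaks, 6.09 per Mb), 20q11.23 (17 peaks, 5.31 per Mb) and 20q13.12 (22 peaks, 5.12 per Mb), which are 7.06, 6.16 and 5.93 times the rate of the other chromosomes. Their intervals were 3.33 to 10.2, 3.09 to 8.51 and 3.21 to 7.75 per Mb. Per protein-coding gene these bands had 0.341, 0.425 and 0.278 SPDEF peaks, against 0.309 over the whole chromosome. The gene-poor bands 20p12.2 and 20q13.2 had more per gene, 0.900 and 1.06. GATA6 was most frequent on the p arm, in 20p12.2 (39 peaks, 13.4 per Mb), 20p11.21 (23 peaks, 10.0 per Mb) and 20p12.3 (35 peaks, 8.54 per Mb). The first and second of these are at 3.78 and 2.81 times the GATA6 rate elsewhere. The third stood little above the bands densest in SPDEF. GATA6 had 8.37 peaks per Mb in 20q13.12, 8.26 in 20q11.22 and 8.12 in 20q11.23, with intervals that overlap that of 20p12.3. SPDEF in 20p12.2 was likewise above its rate on the other chromosomes, so the bands do not divide the factors by arm. The densest GATA6 band is that of JAG1, a Notch ligand, and 20p12.3 is that of BMP2, a bone morphogenetic protein. In 20p12.2 the 39 GATA6 peaks stood beside 9 SPDEF peaks and 10 protein-coding genes, or 3.90 GATA6 peaks per gene, whereas the 79 genes of 20q13.12 stood beside 36 GATA6 peaks, or 0.456 per gene.

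**Figure D1:**
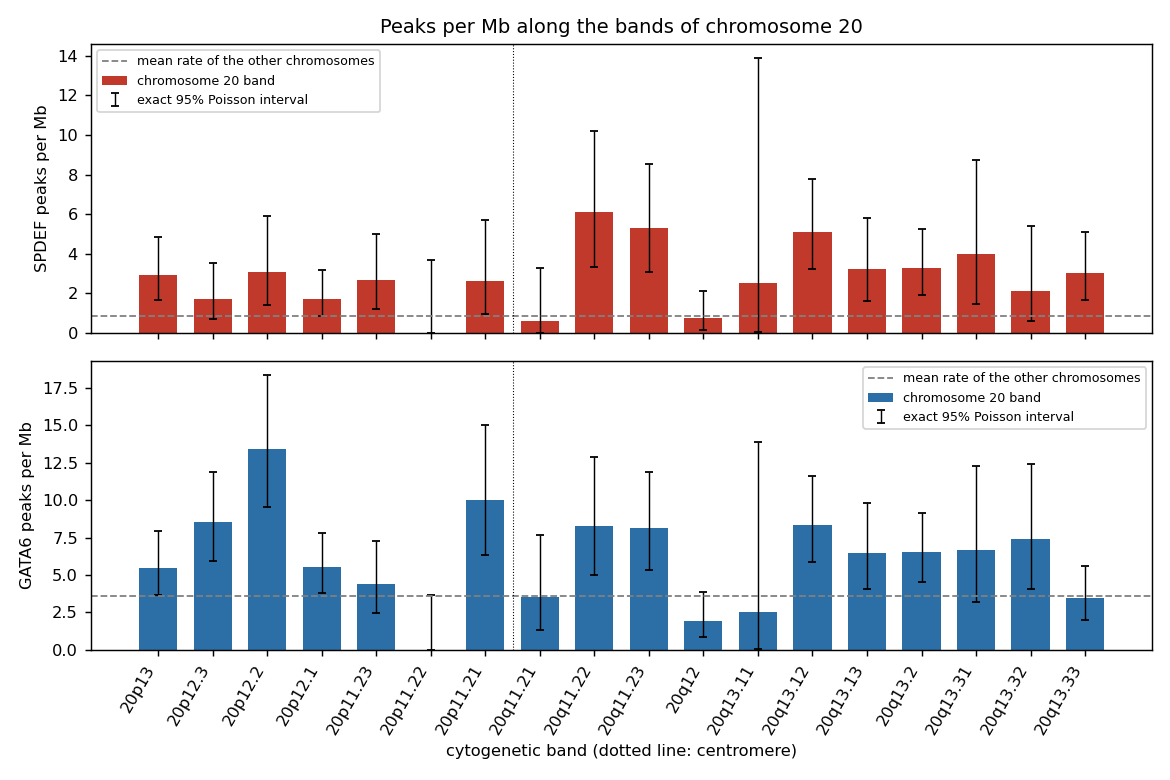
Peaks per Mb (y axis) of SPDEF (top) and GATA6 (bottom) in each cytogenetic band of chromosome 20 outside the centromere zone, in order from the p to the q end. Bars are 1 deposited list each with exact 95% Poisson intervals, and the dashed line is the mean of the other chromosomes, 0.862 for SPDEF and 3.56 for GATA6; SPDEF bars are tallest in 20q11.22, 20q11.23 and 20q13.12 and GATA6 bars in 20p12.2 and 20p11.21.

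Some bands were sparse. Over its 4.10 Mb, 20q12 held 3 SPDEF and 8 GATA6 peaks, 0.849 and 0.548 times the rate of the other chromosomes. The intervals, 0.151 to 2.14 and 0.842 to 3.84 per Mb, include those rates. The band has 9 protein-coding genes, among them TOP1, a topoisomerase. Outside the centromere zone 20q11.21 held 1 SPDEF and 6 GATA6 peaks, 0.682 and 0.991 times the rate elsewhere. The whole of 20q11.21 has 46 protein-coding genes. In 20p11.22, the band of NKX2-2 and PAX1, which specify islet and skeletal lineages, there were 0 peaks of either factor. That band spans 1 Mb, and a count of 0 there allows up to 3.69 peaks per Mb, which is above the GATA6 rate of the other chromosomes. In 20q13.33, a band of 69 protein-coding genes, the factors diverged, with 14 SPDEF peaks at 3.51 times and 16 GATA6 peaks at 0.971 times the rate elsewhere. The longest stretch without a peak of either list ran for 2.12 Mb (chromosome 20, 39969340 to 42085929, in 20q12 to 20q13.11). SPDEF alone was absent for 4.02 Mb (56917726 to 60941153, in 20q13.32 to 20q13.33).

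Windows of 1 Mb gave a finer scale. Of 56 windows on chromosome 20, 14 held at least 5 SPDEF peaks (25%, Wilson interval 15.5 to 37.7), against 4.47% of all windows in the genome. At least 10 GATA6 peaks were held by 14 windows (25%, 15.5 to 37.7), against 9.29% of all windows. The chromosome was chosen for its counts, so these shares are a description. Of the 14 windows dense in SPDEF, 11 lay on the q arm and 3 on the p arm, while those dense in GATA6 were 7 on each arm. The arms differ in size, with 32.6 Mb usable and 357 protein-coding genes on the q arm. The p arm has 24.6 Mb and 180 genes, and per gene the SPDEF rates of the arms were alike (ratio 0.990). Dense in both lists were 6 windows, which is 42.9% of each set, beside the 25% of all 56 windows that are dense in each list. Few windows were empty, 12 for SPDEF (21.4%) and 3 for GATA6 (5.36%), against 63.0% and 28.1% of windows on the other chromosomes. On chromosome 12 these shares were 36.8% and 9.60%, and on chromosome 14 they were 44.6% and 27.7%. Empty windows, too, follow from the counts for which the chromosome was chosen.

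**Figure D2:**
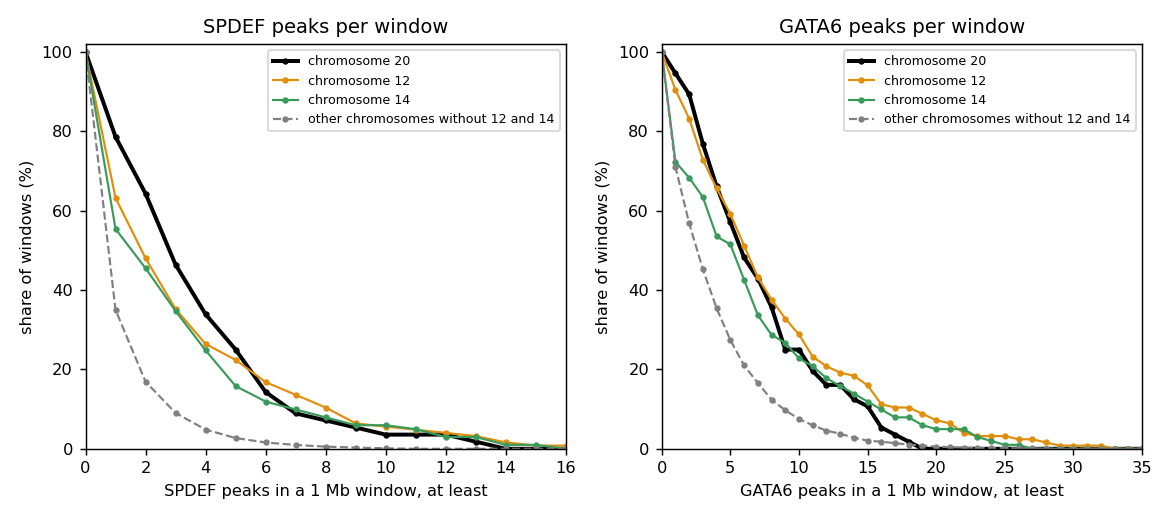
Share of 1 Mb windows (y axis, percent) that hold at least the number of SPDEF (left) or GATA6 (right) peaks on the x axis, for chromosome 20, chromosome 12, chromosome 14 and all others. At 5 SPDEF peaks the curves stand at 25% for chromosome 20, 22.4% for chromosome 12, 15.8% for chromosome 14 and 2.71% for the rest, and at 10 GATA6 peaks at 25%, 28.8%, 22.8% and 7.48%.

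The window with most SPDEF peaks lay in 20q11.22 and 20q11.23 (34 to 35 Mb), with 13 SPDEF and 8 GATA6 peaks, a SPDEF count that ranks 4 among 2863 windows of the genome. The next, in 20q13.2 (52 to 53 Mb), had 12 SPDEF and 15 GATA6 peaks and ranks 9. The window with most GATA6 peaks, at 22 to 23 Mb, had 18 of them and 3 SPDEF peaks, and ranks 39 for GATA6. SPDEF outnumbered GATA6 in 5 windows, of which the one at 34 to 35 Mb had the largest difference. The others were near the ends of the chromosome, in 20q13.33 with 7 SPDEF and 3 GATA6 peaks at 62 to 63 Mb and 6 and 5 at 61 to 62 Mb, and in 20p13 with 6 and 2 at 3 to 4 Mb and 4 and 2 at 0 to 1 Mb.

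Where the lists overlapped was the next question, since the study mapped both factors in the same cells. Of the 166 SPDEF peaks, 105 shared at least 1 base with a GATA6 peak (63.3%, 55.7 to 70.2), close to the 65.7% of SPDEF peaks in the whole genome. Of the 364 GATA6 peaks, 101 carried an SPDEF peak (27.7%, 23.4 to 32.6), against 15.6% in the whole genome. On chromosome 12 the GATA6 share was 23.3% (20.7 to 26.1) and on chromosome 14 it was 25% (21.7 to 28.5), with intervals that overlap that of chromosome 20. Where at least 50% of both peaks had to be covered, 28.9% of SPDEF and 13.2% of GATA6 peaks on chromosome 20 were shared. GATA6 peaks carried an SPDEF peak more often on the q arm (63 of 192, 32.8%, 26.6 to 39.7) than on the p arm (38 of 172, 22.1%, 16.5 to 28.9), with intervals that overlap. Of SPDEF peaks, 60.9% (51.6 to 69.5) on the q arm and 67.9% (54.8 to 78.6) on the p arm lay on a GATA6 peak.

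Shared peaks were nearly centred on each other. Over the 105 overlapping pairs the midpoints lay 90.0 bp apart at the median (quartiles 27.5 and 168), against 91.0 bp (28.6 and 206) on the other chromosomes. The SPDEF peak lay wholly inside the GATA6 peak in 63 of the 105 pairs, against 978 of 1638 (59.7%) on the other chromosomes. The GATA6 peak was the wider in 80 pairs (76.2%), against 74.9% on the other chromosomes. Both shares were thus close to those elsewhere and do not set chromosome 20 apart. In both lists the shared peaks were the wider ones, with medians of 301 bp for shared and 236 bp for other SPDEF peaks, and 501 bp for shared and 343 bp for other GATA6 peaks. Overlap by 1 base can favour wide peaks by construction. Over all peaks of the chromosome the median width was 267 bp for SPDEF and 390 bp for GATA6, against 263 bp and 345 bp on the other chromosomes. Under 100 bp wide were 10 SPDEF and 7 GATA6 peaks of the chromosome.

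The widest GATA6 peak of the chromosome, 2463 bp in 20q11.23 (34672983 to 34675445), carried 3 SPDEF peaks, the most on any 1 GATA6 peak here. They ran from 34673008 to 34674365, from 34674743 to 34674822 and from 34674987 to 34675366. The first of them, 1358 bp, is the second widest SPDEF peak. Its band holds EPB41L1, a membrane-cytoskeleton adaptor, MYL9, a myosin light chain, SRC, a tyrosine kinase, and TGM2, a transglutaminase, among 40 protein-coding genes. Only 2 other GATA6 peaks carried more than 1 SPDEF peak, in 20q12 (39631917 to 39633038) and 20q13.31 (56272852 to 56274241), with 2 each. The next shared pairs by the sum of their width ranks were in 20q13.12 (SPDEF 44409636 to 44410644, GATA6 44409125 to 44410858), 20q13.13 (SPDEF 49345383 to 49346544, GATA6 49345265 to 49346526), 20p12.3 (SPDEF 5345043 to 5345664, GATA6 5344613 to 5346099) and 20q13.31 (SPDEF 56273546 to 56274132, GATA6 56272852 to 56274241).

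All 5 of the widest SPDEF peaks were shared with GATA6. Besides the one in 20q11.23, they lay in 20q13.12 (45986615 to 45988189, 1575 bp, and 45947096 to 45948105, 1010 bp), in 20q11.22 (32580464 to 32581716, 1253 bp) and in 20q13.13 (49345383 to 49346544, 1162 bp). Of the 5 widest GATA6 peaks only 2 were shared, the one in 20q11.23 and one in 20p12.1 (14965893 to 14967730, 1838 bp). The other 3 lay in 20p12.2 (10558611 to 10560746), 20p12.3 (8135879 to 8137981) and 20q13.13 (48315669 to 48317522), with the nearest SPDEF peak 18.6, 313 and 23.7 kb away. The 5 widest SPDEF peaks were thus on the q arm and the 5 widest GATA6 peaks on both arms. Of all peaks, 110 of 166 SPDEF and 192 of 364 GATA6 peaks lay on the q arm, and 5 peaks are too few to compare with this.

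SPDEF peaks off GATA6 numbered 61. A GATA6 peak lay within 10 kb of 18 of them (10.8% of all 166), between 10 and 100 kb of 35 (21.1%, 15.6 to 27.9) and farther from 8 (4.82%, 2.46 to 9.22). On the other chromosomes the share at 10 to 100 kb was 13.0% and the share farther away 9.96%. The 43 peaks with no GATA6 peak within 10 kb were spread over 13 bands, 8 of them in 20p13 and 6 in 20q13.33. The widest were in 20q13.12 (45343749 to 45344511, 763 bp), 20q13.33 (62588592 to 62589069, 478 bp, and 62495834 to 62496298, 465 bp), 20q11.23 (37233782 to 37234246, 465 bp) and 20p13 (3869405 to 3869829, 425 bp). From the other side, 115 GATA6 peaks (31.6%) had no SPDEF peak within 100 kb, against 58.6% on the other chromosomes. More SPDEF peaks per Mb lower this share by construction, and the chromosome was chosen for its peak counts, so it is a description.

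Joining peaks of the lists that overlapped gave 425 sites, 101 of both factors, 61 of SPDEF alone and 263 of GATA6 alone. Sites with gaps of at most 50 kb to their neighbour were chained, and chains of at least 5 sites are called dense segments. There were 18 of them, 9 on each arm, from 24.9 to 125 kb long with 5 to 10 sites. The number depends on the settings, with 10 segments at gaps of at most 25 kb and 8 in the wider 50% of each list. They covered 1.36 Mb, or 2.38% of the usable length, and held 125 of the 425 sites (29.4%, 25.3 to 33.9), against 21.4% of sites in the whole genome. On chromosome 12 it was 34.3% and on chromosome 14 it was 31.8%. SPDEF peaks were present in 17 of the 18, and 16 held a site of both factors. Within segments 36 of 125 sites were of both factors (28.8%, 21.6 to 37.3), and outside them 65 of 300 (21.7%, 17.4 to 26.7), with intervals that overlap.

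**Figure D3:**
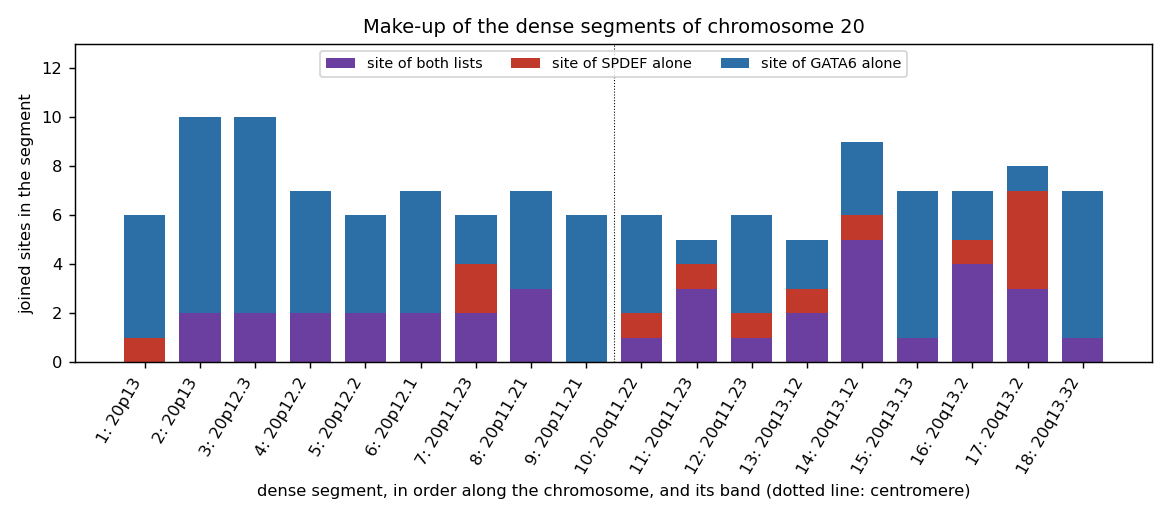
Number of joined sites (y axis) in each of the 18 dense segments of chromosome 20, numbered along the chromosome from the p to the q end and split into sites of both lists, of SPDEF alone and of GATA6 alone. Segments 2 and 3 on the p arm are the largest, with 10 sites each, of which 8 are of GATA6 alone, and segment 17 in 20q13.2 has 4 sites of SPDEF alone.

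The 9 segments of the q arm held 50 GATA6 and 33 SPDEF peaks, and the 9 of the p arm 62 and 18. The largest by sites were in 20p13 (4435917 to 4536753, 101 kb) and 20p12.3 (6643618 to 6746754, 103 kb), each with 10 GATA6 and 2 SPDEF peaks, of which the one in 20p13 was not found with the wider peaks. All 4 of these SPDEF peaks lay on GATA6 peaks. On 20p12.2, the band of JAG1, 2 segments (10521625 to 10585322 and 11159285 to 11248626) held 7 and 6 GATA6 peaks with 2 SPDEF peaks each, again all shared. The segment of 20p12.1 (14842670 to 14967730, 125 kb) had 7 and 2 and was the longest. The remaining p arm segment of 20p13 (4014904 to 4116687) had 5 GATA6 peaks and 1 SPDEF peak, which did not overlap them. In 20p11.23 (19798045 to 19870071) the factors were balanced, with 4 peaks each, 2 of each shared. This segment was not found with the wider peaks. The segment of 20p12.1 and the one of 20p13 that starts at 4014904 were found neither at 25 kb gaps nor with the wider peaks.

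In 20p11.21, the band of FOXA2 and of the salivary-type cystatins CST1, CST2 and CST4, 2 segments lay side by side and differed. The first (22564624 to 22600542) packed 7 GATA6 peaks into 35.9 kb, or 19.5 sites per 100 kb, and 3 of them carried an SPDEF peak. The second (22692705 to 22776579, 83.9 kb) had 6 GATA6 peaks and no SPDEF peak, the only dense segment without one. The first was found at 25 kb gaps and with the wider peaks, and the second under neither of these settings. Both lie in a band of 31 protein-coding genes, and a band does not place a gene at a segment.

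On the q arm the segments were richer in SPDEF. The segment of 20q13.12 nearer the centromere (44407762 to 44486382) had 3 SPDEF and 4 GATA6 peaks. The other (45903487 to 46021519) had 6 and 8, with 5 shared sites and the widest SPDEF peak of the chromosome. That band of 79 protein-coding genes holds HNF4A, the antiprotease genes SLPI, PI3 and WFDC2, SDC4, a cell-surface proteoglycan, and SULF2, a heparan sulfatase. No hg19 position was at hand for these genes, so none is placed at a segment. In 20q11.23 the segment around the widest GATA6 peak (34638472 to 34684890, 46.4 kb) had 6 SPDEF and 4 GATA6 peaks, 5 of the SPDEF peaks shared. It is 1 of 2 segments in which SPDEF peaks outnumber those of GATA6, but 3 of its SPDEF peaks lie on 1 GATA6 peak. Counted as joined sites, this segment has 3 of both lists, 1 of SPDEF alone and 1 of GATA6 alone. Neither this one nor the 2 of 20q13.12 was found at 25 kb gaps. The one of 20q13.12 nearer the centromere was also not found with the wider peaks, nor with peaks of at least 100 bp. The other segment of 20q11.23 (36738280 to 36815603) had 5 GATA6 and 2 SPDEF peaks, 1 of the latter only 9 bp wide (36772094 to 36772102). The most compact segment, in 20q11.22 (32377723 to 32402582), packed 6 sites into 24.9 kb, with 2 SPDEF and 5 GATA6 peaks. Neither of these last 2 was found with the wider peaks. The band 20q11.22 holds EDEM2 and ERGIC3, which work in endoplasmic reticulum quality control and transport, and PROCR, the protein C receptor. They are named from 41 protein-coding genes and are not placed at the segment.

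Segments in 20q13.13 (49341750 to 49380947) and 20q13.32 (56826803 to 56917795) had 7 GATA6 peaks and 1 shared SPDEF peak each, a balance like that of the p arm. The one in 20q13.32 was found neither at 25 kb gaps nor with the wider peaks. The bands hold CEBPB, a bZIP factor, and PTPN1, a tyrosine phosphatase, in 20q13.13, and the vesicle genes RAB22A and VAPB in 20q13.32. These bands have 26 and 17 protein-coding genes, and the named ones are not placed at the segments. The 2 segments of 20q13.2 held more SPDEF peaks than these. The first (52208047 to 52259788, 51.7 kb) had 5 SPDEF and 6 GATA6 peaks and 4 shared sites. The second (52739722 to 52796639, 56.9 kb) had 7 SPDEF and 4 GATA6 peaks, with 3 shared sites and 4 of SPDEF alone. The first was not found at 25 kb gaps, nor the second with the wider peaks. With 16 protein-coding genes, 20q13.2 had 1.06 SPDEF peaks per gene, the most of any band.

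**Figure D4:**
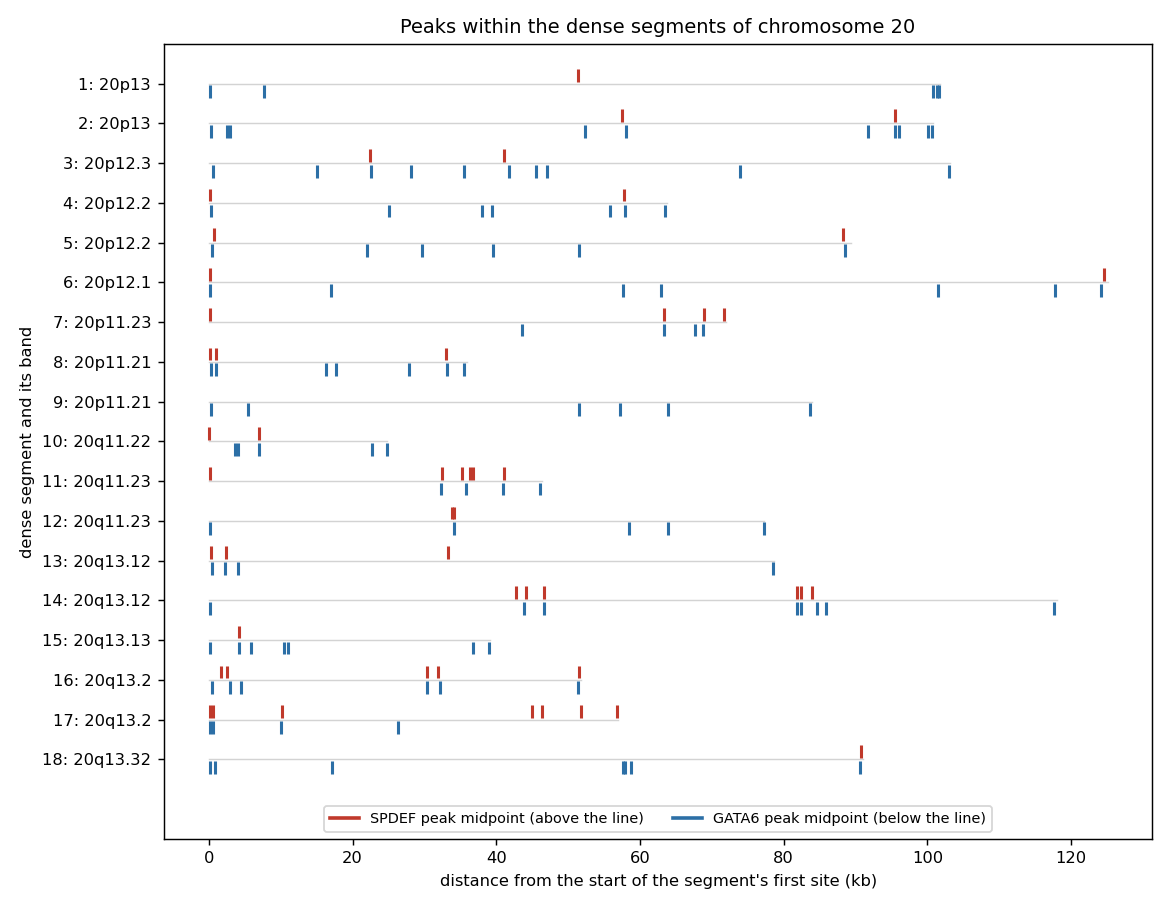
Position of each SPDEF peak (above the line) and GATA6 peak (below the line) in the 18 dense segments, as distance in kb from the start of the segment's first site (x axis), with segments listed from the p to the q end. In segments 2 to 6 each SPDEF mark stands over a GATA6 mark, and in segment 17 the 4 SPDEF marks at the far end have no GATA6 mark below them.

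NTSR1, a G protein-coupled receptor for the gut and brain peptide neurotensin, runs from 61340188 to 61394123 on the plus strand in 20q13.33. Upstream of it lay 3 SPDEF peaks (61335099 to 61335345, 61335724 to 61335931 and 61336080 to 61336285) and 2 GATA6 peaks (61335115 to 61335498 and 61335587 to 61335835) whose nearer ends were 4.84 to 3.90 kb before the start. The first and second SPDEF peaks each overlapped a GATA6 peak, and the one nearest the gene did not. In an intron, an SPDEF peak of 752 bp (61370974 to 61371725) lay over a GATA6 peak of 480 bp (61371124 to 61371603), here with SPDEF the wider. Its band held SPDEF peaks at 3.51 times and GATA6 peaks at 0.971 times the rate elsewhere. A single further SPDEF peak lay 32.8 kb past the gene.

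BCAS1, a gene named for its amplification in breast cancer and expressed in myelinating glia, runs from 52560079 to 52687304 on the minus strand in 20q13.2. It had no peak within it. The SPDEF-rich segment 17 began 52.4 kb upstream of its start, with SPDEF peaks 52.4, 52.9 and 62.5 kb away that overlapped GATA6 peaks and others 97.3 and 98.7 kb away that did not. In the gene order of GRCh38.p14 the next protein-coding gene on that side is CYP24A1, the enzyme that breaks down vitamin D. On the other side of BCAS1 it is ZNF217, a zinc-finger factor. Downstream of BCAS1 lay 3 GATA6 peaks, 36.4, 42.4 and 77.2 kb away, and the first segment of 20q13.2 lies farther on that side.

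**Figure D5:**
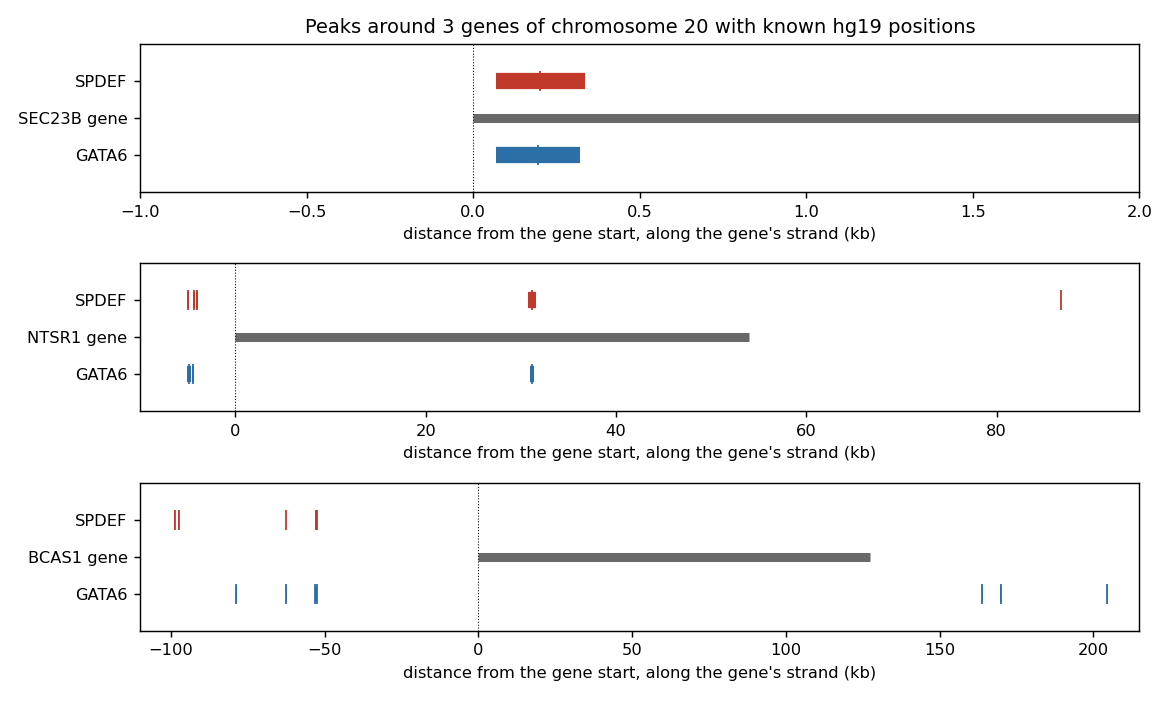
SPDEF peaks (top row of each panel) and GATA6 peaks (bottom row) around SEC23B, NTSR1 and BCAS1, as distance in kb from the gene start along the gene's strand (x axis), with the gene as a grey bar. Both SEC23B peaks begin 68 bp after the start, the NTSR1 peaks gather upstream, with their nearer ends 4.84 to 3.90 kb before the start, and in an intron, and the BCAS1 peaks lie outside the gene.

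Among the remaining genes, SIRPB2, a signal-regulatory receptor of 20p13, had a GATA6 peak of 212 bp in an intron (1470367 to 1470578) and another 4.08 kb past its end, and no SPDEF peak within 100 kb. STAU1, an RNA-binding protein, had its nearest peak 66.6 kb away and a shared pair 89.8 kb upstream. NCOA5, a nuclear receptor coactivator, had 1 SPDEF peak 88.1 kb away and no GATA6 peak within 100 kb. FAM209A had 1 GATA6 peak at 80.3 kb, and APCDD1L 2, at 51.8 and 42.2 kb. The gene starts of these 5 were thus free of peaks of both lists within 1 kb.

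Other genes could be tied to peaks by band only, since the gene table is of another build. All 99 entries of 9 gene lists for chromosome 20 had a band. All 12 genes of the secretory pathway and of glycosylation lie in a band with a dense segment. So do 11 of 13 secreted inhibitors of the WFDC, cystatin and BPI families, 9 of 10 genes of metabolism and vitamin D, and 9 of 13 ligands and signalling genes. For genes of adhesion, matrix and cytoskeleton it is 7 of 13, for endoderm and epithelial factors 6 of 9, and for factors of neural, islet and other lineages 7 of 11. For growth and chromatin regulators and for genes of cell survival and mitosis it is 5 of 9 each. Over the lists this makes 71 of 99 entries (71.7%), against 395 of all 537 protein-coding genes of the chromosome (73.6%), so the lists as a whole are near the share of all genes. Over all 537 genes the median gene lies in a band with 3.51 times the SPDEF rate and 1.82 times the GATA6 rate of the other chromosomes. For metabolism and vitamin D genes these medians were 6.04 and 2.30, for secreted inhibitors 5.93 and 2.35, and for ligands and signalling genes 4.64 and 2.32. For secretory pathway genes they were 3.75 and 2.19, and for endoderm and epithelial factors 3.75 and 1.84. The regulators of growth and chromatin, the adhesion genes and the survival and mitosis genes each had 3.75 and 1.82, and factors of other lineages 3.41 and 1.54. These values describe bands and not genes. The list of metabolism and vitamin D also holds BCAS1 and BCAS4, which its title does not describe and which are among its 9. Its genes AHCY, GGT7, ACSS2 and GSS share 1 band, 20q11.22, at 7.06 times the SPDEF rate of the other chromosomes.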

How the data were processed

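The deposited peak lists give the chromosome, start and end of each peak, and no score. The tools named in the submitters' processing notes are deepTools, MACS2 2.2.7.1, SAMtools 1.14 and Bowtie2 2.4.4, beside the builds mm10 and hg19. Their settings, the merging of 3 libraries into each list, the peak threshold and the control used are not stated there. The lists were tied to their targets by name. In hg19 0 SPDEF and 0 GATA6 peaks ended past a chromosome, against 18 and 28 in GRCh38. Positions count from 1. The mouse list was not used here.

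Chromosomes 1 to 22 and X were compared, leaving out centromere bands and 1 Mb on each side, with bands from circlize 0.4.16 and lengths from GenomeInfoDb 1.38.1 in R 4.3.3. A peak belongs to the band or window of its midpoint. Assembly gaps were not subtracted. Shares carry Wilson intervals, rates exact Poisson intervals and ratios of rates exact conditional intervals, from scipy 1.17.1 in Python 3.11.15. Protein-coding genes and band membership of genes are from RefSeq GRCh38.p14, by band name, and gene counts are for whole bands and arms. The hg19 genes come from the sample tables of GenomicFeatures 1.54.1, which names its build, and pyranges 0.1.4, which does not. Of the 7 haplotype names in the latter, 6 occur in the former. Figures used matplotlib 3.10.9. The functions were tested on simulated data.

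The chromosome and the gene lists were chosen with earlier results of these data known. Named were all dense segments and all bands with usable length outside the centromere zone. Also named were the 5 widest peaks of each list, the 5 pairs that ranked highest by summed width rank, and of SPDEF peaks over 10 kb from GATA6 the 5 widest. The hg19 genes, GATA6 peaks with several SPDEF peaks and peak-free stretches were named after their values were seen.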

Additional observations from a re-analysis of the deposited data

How the results depend on the processing

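No paired analysis was possible because the lists carry no replicate numbers, and leaving out a library could not be run because values of single libraries are not among the data used here. Of 36 alternatives, 26 stayed within the counting interval of the reported value, or within 1.5 times of a count. Per protein-coding gene the SPDEF ratio of the q over the p arm turned to 0.990, the GATA6 ratio was 0.563, and chromosome 20 over the others came to 2.46 for SPDEF and 1.31 for GATA6. With the wider 50% of each list, chromosome 20 over the others was 2.00 for GATA6, 22.1% of GATA6 peaks were shared with SPDEF, and 8 dense segments were found. With gaps of at most 25 kb there were 10 segments. With 50% of both peaks covered, 28.9% of SPDEF peaks and 13.2% of GATA6 peaks were shared. Every segment found with 25 kb gaps or with wider peaks lay on one of the 18, but 8 and 10 of the 18 were then not found. Of the pair in the FOXA2 band, the first was found under all 4 alternatives, and the second, which holds no SPDEF peak, was lost under both of these. The SPDEF-rich segment 17 and the 10-site segment 2 were lost with wider peaks. Depth, which sets how many peaks are called, is unknown.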
